A study of Homo sapiens with 22 samples.

Results

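The data described here are the 4 peak lists that compare monomethylation with trimethylation of histone H3 lysine 4 in A673: 2 H3K4me1 lists and 2 H3K4me3 lists, out of 22 libraries in the series. The members are 16000 H3K4me3 regions. Each is a stretch of merged, overlapping peaks to which both H3K4me3 replicates gave a peak. Every region was divided into 3 zones, namely its inside and the 2 kb flank on each side, and a zone was said to carry H3K4me1 where a peak of each H3K4me1 library overlapped it by at least 1 bp. A673 and CHLA10 are established Ewing sarcoma cell lines, and in both the fusion transcription factor EWS-FLI1 drives the tumour. The profiles come from CUT&RUN, in which an antibody directs micrococcal nuclease to chromatin and the released fragments are sequenced. All 4 libraries came from A673 cells labelled shNS, with either antibody used at a dilution of 1 in 100 and no further agent named. Whether replicates were separate cultures is not stated, so the spread between them may be technical.

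H3K4me3 marks the nucleosomes beside active transcription start sites and is placed mainly by the SET1 and MLL1/2 methyltransferase complexes, which are drawn to unmethylated CpG-rich DNA. H3K4me1 is placed largely by MLL3 and MLL4 and is best known from enhancers, where it often accompanies H3K27ac, the acetylation found at active elements. At many promoters the marks are arranged in order, with H3K4me3 at the start and H3K4me1 on the shoulders. H3K27me3, the Polycomb mark, can lie on the same promoters as H3K4me3 at developmental genes.

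The promoters below stand for the patterns of H3K4me1 found. Each belongs to the strongest H3K4me3 region of its pattern that has a promoter in the reference table. PHF12 had H3K4me1 in both flanks and not inside, FJX1 in both flanks and inside, GATAD2A inside and in 1 flank, NBPF1 inside only, and LIN7C in none of the zones. Each sequence runs 5′ to 3′ along the gene from 250 bases before the start to 50 bases after it (RefSeq, GRCh38.p14), and capitals mark the CG dinucleotides. All 300 bases of each lay within the gene's H3K4me3 region.
PHF12, chr17:28951469-28951768, minus strand: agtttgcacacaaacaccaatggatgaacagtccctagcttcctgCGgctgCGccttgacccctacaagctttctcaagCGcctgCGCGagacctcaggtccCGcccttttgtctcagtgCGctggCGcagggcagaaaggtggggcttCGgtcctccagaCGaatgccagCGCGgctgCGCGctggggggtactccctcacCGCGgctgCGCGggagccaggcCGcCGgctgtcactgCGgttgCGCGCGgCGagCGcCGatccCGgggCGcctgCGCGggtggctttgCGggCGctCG
FJX1, chr11:35618210-35618509, plus strand: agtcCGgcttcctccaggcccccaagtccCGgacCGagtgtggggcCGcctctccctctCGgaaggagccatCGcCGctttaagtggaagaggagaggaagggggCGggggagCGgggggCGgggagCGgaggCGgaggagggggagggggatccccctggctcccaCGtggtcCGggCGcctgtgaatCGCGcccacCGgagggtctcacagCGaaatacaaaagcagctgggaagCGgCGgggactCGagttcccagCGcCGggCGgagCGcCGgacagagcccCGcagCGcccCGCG
GATAD2A, chr19:19385593-19385892, plus strand: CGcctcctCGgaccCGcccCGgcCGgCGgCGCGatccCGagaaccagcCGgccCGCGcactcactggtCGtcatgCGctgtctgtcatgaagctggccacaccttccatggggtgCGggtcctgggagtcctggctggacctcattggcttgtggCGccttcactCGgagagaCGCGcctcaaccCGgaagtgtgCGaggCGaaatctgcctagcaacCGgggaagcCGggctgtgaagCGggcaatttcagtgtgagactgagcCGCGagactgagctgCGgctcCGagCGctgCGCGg
NBPF1, chr1:16613515-16613814, minus strand: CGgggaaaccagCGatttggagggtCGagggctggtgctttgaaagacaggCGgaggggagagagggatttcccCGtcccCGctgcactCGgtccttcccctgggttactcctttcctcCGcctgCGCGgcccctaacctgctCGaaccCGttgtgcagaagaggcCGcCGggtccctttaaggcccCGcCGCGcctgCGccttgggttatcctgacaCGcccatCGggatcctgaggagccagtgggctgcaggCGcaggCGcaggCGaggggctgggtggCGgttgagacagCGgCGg
LIN7C, chr11:27506720-27507019, minus strand: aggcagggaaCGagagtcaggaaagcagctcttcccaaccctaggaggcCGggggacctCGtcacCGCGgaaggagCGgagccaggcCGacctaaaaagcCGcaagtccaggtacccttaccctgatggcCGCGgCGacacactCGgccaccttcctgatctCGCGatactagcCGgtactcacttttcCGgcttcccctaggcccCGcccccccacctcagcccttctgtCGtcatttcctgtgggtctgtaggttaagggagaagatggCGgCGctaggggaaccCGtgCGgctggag
These 5 promoters hold between 22 (LIN7C) and 34 (PHF12) CG dinucleotides, and their GC content runs from 63.3% (LIN7C) to 72.3% (FJX1). None of the 5 holds TATAAA or GGAAGGAA on either strand. PHF12 encodes a PHD-finger protein of a SIN3 histone deacetylase complex, and FJX1 is the human relative of the fly growth regulator four-jointed. GATAD2A is a subunit of the NuRD deacetylase complex, and LIN7C is a scaffold protein of cell junctions. NBPF1 belongs to a family of near-identical copies on chromosome 1, so its peaks are uncertain.

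**Figure D1:**
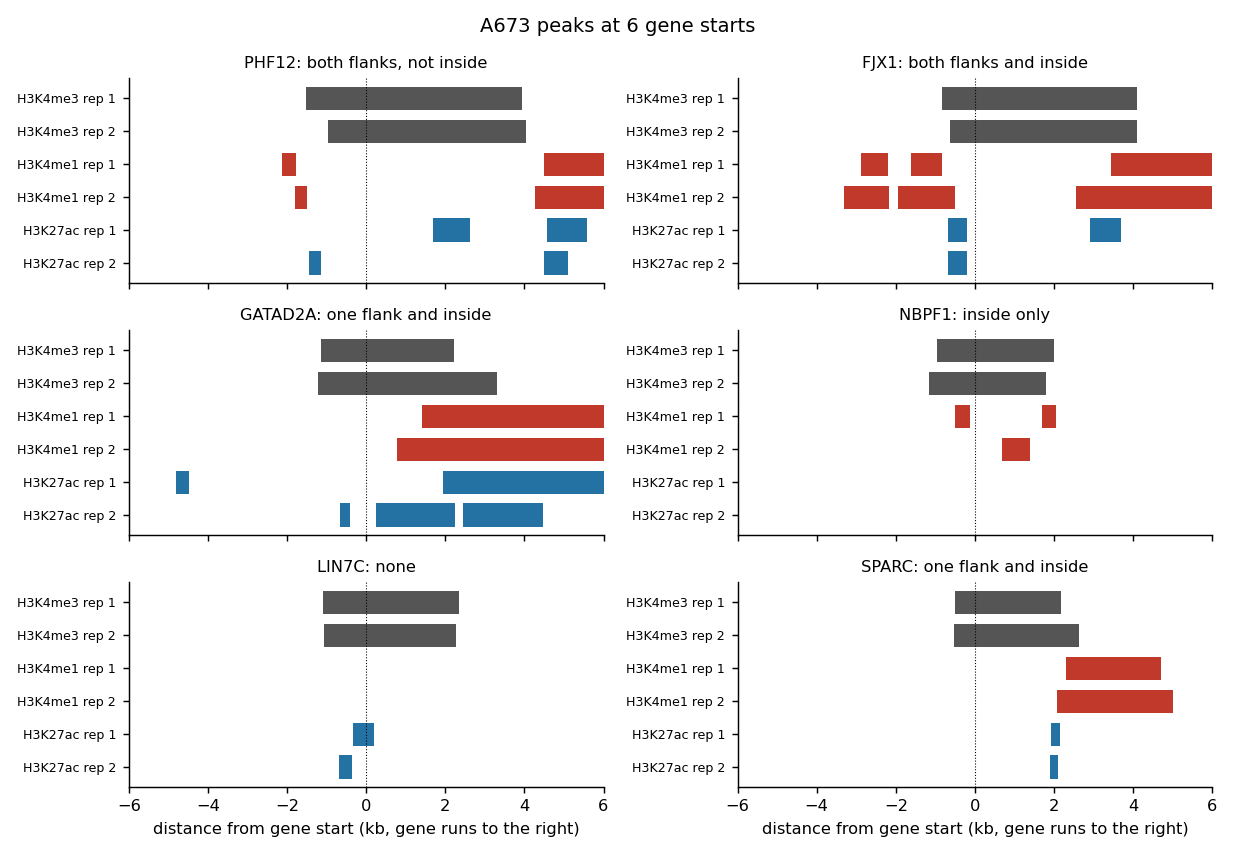
Peaks of the 2 H3K4me3, 2 H3K4me1 and 2 H3K27ac libraries of A673 within 6 kb of 6 gene starts, 1 bar per peak, with distance in kb along the gene on the horizontal axis and 1 row per library. At PHF12, FJX1, GATAD2A and SPARC the H3K4me1 bars lie over or beyond the ends of the H3K4me3 bars, at LIN7C there are none, and at NBPF1 the bars of the 2 H3K4me1 libraries do not overlap.

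The first measurement was how much of the H3K4me3 landscape carries H3K4me1 at all. The H3K4me3 lists held 17909 and 18497 peaks with median lengths of 1945 and 1809 bp, and the H3K4me1 lists held 106770 and 43083 peaks with median lengths of 398 and 774 bp. The H3K4me3 replicates repeated each other well, with 90.7% of the peaks of replicate 1 and 88.0% of those of replicate 2 overlapping the other list. For H3K4me1, 64.8% of the peaks of the shorter list overlapped the longer one and 27.9% of the longer list overlapped the shorter. Between 5.93% and 8.17% of the peaks of an H3K4me1 list overlapped an H3K4me3 list, so most H3K4me1 peaks lay elsewhere. The lists hold no read counts, and depth is unknown.

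Of the 16000 regions, 3718 carried H3K4me1 inside or in a flank in both libraries, which is 23.2% of all regions, and 3044 carried it in at least 1 flank, which is 19%. H3K4me1 lay inside in 2156 regions (13.5%, 95% Clopper-Pearson interval 12.9 to 14.0%). It lay in exactly 1 flank in 2600 regions (16.25%, interval 15.7 to 16.8%) and in both flanks in 444 regions (2.78%, interval 2.53 to 3.04%). The remaining 12282 regions (76.8%, interval 76.1 to 77.4%) had H3K4me1 of both libraries in no zone. These intervals cover counting error only, and the 2 libraries lie much further apart than they allow.

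Taken singly, H3K4me1 replicate 1 marked the inside of 34.2% of the regions and replicate 2 marked the inside of 18.9% (26.5% ± 10.8, SD, n = 2). The values for both flanks were 7.83% and 3.95% (5.89% ± 2.74, SD, n = 2), and those for exactly 1 flank were 36.6% and 21.9% (29.2% ± 10.4, SD, n = 2). No H3K4me1 was found at 44.7% of the regions by replicate 1 and at 69.5% by replicate 2 (57.1% ± 17.5, SD, n = 2). The replicate with the longer list gave the higher share in each of the 3 marked classes. In both libraries, with flanks of 2 kb, a single flank was the commonest place, ahead of the inside, and both flanks was the rarest. The order of the first 2 depends on the flank length chosen. With flanks of 1 kb and peaks of both libraries required, exactly 1 flank was marked at 12.3% and the inside at 13.5% of regions. With 2 libraries a mark the smallest p of an exact, two-sided permutation test is 0.33, and none was run. The share with both flanks marked also rested on the demand for both H3K4me3 replicates: over the peaks of replicate 2 alone it was 5.25%, and over those of replicate 1 alone 4.63%. Where a zone carried peaks of both libraries, the peaks shared at least 1 bp in 89.7% of the inside zones and in 92.1% of the flanks.

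The inside and flank calls divide the regions into 6 exclusive patterns. H3K4me1 in both flanks with none inside, the arrangement of a promoter bordered on each side, was found at 48 regions. Both flanks together with the inside gave 396 regions. A single flank gave 1514 regions without H3K4me1 inside and 1086 with it, and 674 regions had it inside only.

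Position relative to genes separated these patterns. Regions within 1 kb of a protein-coding gene start numbered 12171, those near the start of another annotated gene numbered 1424, and 2405 lay away from every gene start in the reference tables. A region at a start that these tables lack would fall in the last group. H3K4me1 in both flanks was found at 160 regions near a protein-coding start (1.31%, interval 1.12 to 1.53%) and at 239 of the regions away from starts (9.94%, interval 8.77 to 11.2%). The same order held in each library, at 5.93% and 2.20% near protein-coding starts against 17.5% and 12.4% away from starts. H3K4me1 inside was likewise less common near protein-coding starts (12.0%) than away from starts (22.3%). The difference between classes was smaller for exactly 1 flank, at 15.8% and 19.8%, and in replicate 1 that class was the more common near protein-coding starts (37.4% against 36.6%).

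**Figure D2:**
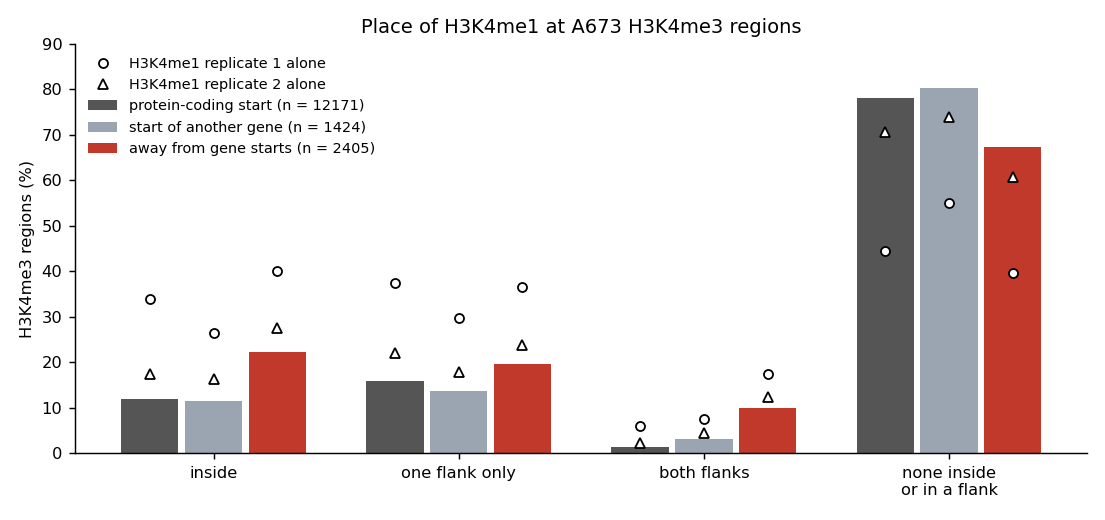
Percentage of A673 H3K4me3 regions (vertical axis) with H3K4me1 in each place, by position of the region relative to genes. Bars require peaks of both H3K4me1 libraries, circles and triangles give each library alone; both flanks was reached by 1.31% of regions at protein-coding starts and 9.94% of those away from starts.

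The regions away from starts with H3K4me1 in both flanks and inside, 229 in number, were short and weak H3K4me3 regions. Their median length was 695 bp and their median H3K4me3 enrichment over the caller's background was 6.25-fold and 5.98-fold in the 2 H3K4me3 replicates. The regions away from starts with no H3K4me1 had a median length of 1128 bp and median enrichments of 11.3-fold and 9.97-fold. Of the former 69.4%, and of the latter 47.4%, overlapped a protein-coding gene by at least 1 bp. A single H3K4me1 peak longer than a region can reach both flanks, and the median H3K4me1 peak of replicate 2 was 774 bp long. Median region length was 1136 bp away from starts and 2505 bp at protein-coding starts. The part of region length in the difference between these classes was not tested. H3K4me3 strength moved with the class, so the comparison was repeated within 4 groups of equal size by −log10 q. In the lowest group both flanks carried H3K4me1 at 13.7% of 1601 regions away from starts and at 2.39% of 1797 regions at protein-coding starts. In the second group the shares were 2.15% of 512 and 0.813% of 3076 regions. In the third they were 2.22% of 180 (4 regions, interval 0.609 to 5.59%) and 0.926% of 3565 (interval 0.638 to 1.30%). In the highest group they were 4.46% of 112 (5 regions, interval 1.47 to 10.1%) and 1.58% of 3733 (interval 1.21 to 2.03%). The intervals of the 2 classes thus overlapped in the third and highest groups. Of the 239 regions away from starts with both flanks marked, 219 lay in the lowest group, within which −log10 q still ran from 2.00 to 28.0.

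The strongest regions away from starts with this pattern were singled out after their values were seen. Whether any of them holds a gene start missing from the reference tables was not tested. The highest ranked overlapped LMNA, the gene of lamins A and C, at chr1:156113760-156117524 (hg38), where the H3K4me1 libraries covered 681 and 908 bp inside. The next overlapped LMO2, a transcription cofactor of blood development, at chr11:33867872-33871328, where they covered 2188 and 2098 bp inside. The third overlapped PLXNB2, a semaphorin receptor, at chr22:50303916-50307764, with 1890 and 2169 bp. Peaks of both H3K27ac libraries lay inside all of these. The fourth, at chr20:62768053-62774487, was 5282 bp from the nearest protein-coding gene, NTSR1, and was the one among the 4 in which neither CHLA10 H3K4me3 list had a peak.

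At gene starts the arrangement could be read along the direction of transcription. This was done for 8276 regions near protein-coding starts that all lie on 1 strand, each region counted once, in bins of 250 bp. The starts were chosen for an H3K4me3 region within 1 kb, which by itself favours H3K4me3 peaks at the start. H3K4me3 covered 97.7% and 97.3% of the starts in the first bin after the start. H3K4me1 was at its lowest there, at 2.69% and 1.24% of starts in replicates 1 and 2. Upstream it reached 9.10% (replicate 1, 1250 to 1000 bp before the start) and 5.30% (replicate 2, 1500 to 1250 bp before). Downstream it reached 13.0% (replicate 1, 2000 to 2250 bp after the start) and 8.08% (replicate 2, 2250 to 2500 bp after). Both libraries thus showed a pair of shoulders with a dip at the start, and the downstream shoulder was the higher. Far from the start, at the outer end of the 10 kb examined on each side, H3K4me1 covered 4.25% and 2.55% of upstream bins and 6.59% and 4.38% of downstream bins, so the gene side was also the higher at that distance.

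**Figure D3:**
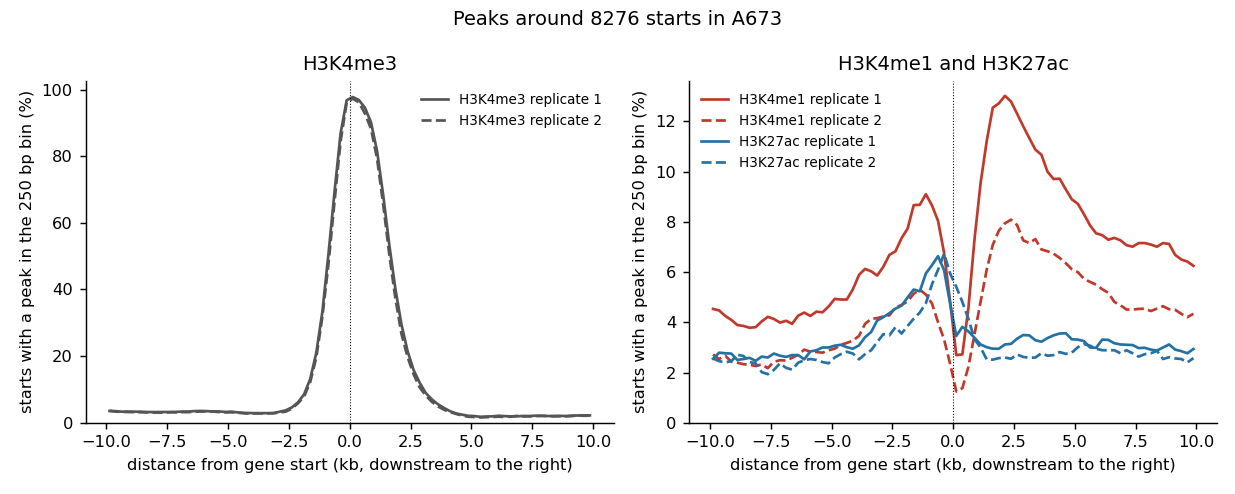
Percentage of 8276 gene starts with a peak in each 250 bp bin (vertical axis) by distance from the start in kb along the gene. The starts were chosen for an A673 H3K4me3 region within 1 kb. Solid lines are replicate 1 and dashed lines replicate 2. H3K4me3 is centred just after the start, while H3K4me1 falls to 2.69% and 1.24% there and rises to 13.0% and 8.08% downstream.

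The H3K4me3 regions themselves reached further into the gene than away from it, by a median of 1627.5 bp downstream of the start and 801 bp upstream. When each region was cut into 10 equal parts from its upstream edge, H3K4me1 covered 11.2% and 5.93% of the first parts. It covered 3.30% and 1.90% of the fifth parts and 17.3% and 10.3% of the last parts. The dip was therefore within the H3K4me3 region, and H3K4me1 overlapped the region mainly at its ends.

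Counted per gene, the flank on the gene body side carried H3K4me1 more often than the upstream flank. This order was not particular to the flanks. At the outer end of the 10 kb profile the downstream bins were also the higher, at 6.59% against 4.25% in replicate 1 and 4.38% against 2.55% in replicate 2. Among 10766 genes with a region and a known strand, 989 had H3K4me1 in the downstream flank alone and 644 in the upstream flank alone, a ratio of 1.54, and 119 had it in both. The ratio was 1.55 in replicate 1 and 1.57 in replicate 2. Genes that share a region count more than once here. Over the 8276 regions with starts on 1 strand, an alternative chosen after seeing the data, the counts were 825 and 492, a ratio of 1.68. At 1062 regions with starts on both strands, where either flank can lie in a gene body, the counts were 72 and 59, a ratio of 1.22. H3K27ac had the opposite order over the same 10766 genes, with downstream to upstream ratios of 0.767 and 0.737. In CHLA10, H3K4me1 around the A673 regions gave ratios of 1.40 and 1.59, on the same side as in A673.

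Away from the region edges H3K4me1 fell over the first few kb and then changed little. The first 250 bp outside an edge carried H3K4me1 on 13.8% of sides in replicate 1 and 9.21% in replicate 2, which was the highest of all bins up to 20 kb in both. At 2000 to 2250 bp the values were 8.40% and 5.86%, and from 18 to 20 kb they averaged 5.48% and 3.71%. The first bin thus exceeded the distant level 2.52-fold and 2.48-fold. For regions away from gene starts these ratios were 3.95 and 4.15, and for regions at protein-coding starts they were 2.21 and 2.04.

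Longer H3K4me3 regions carried H3K4me1 more often. Among regions at protein-coding starts, H3K4me1 lay inside in 6.34% of those of 183 to 1462 bp and in 21.3% of those of 3129 to 23330 bp. In at least 1 flank, whose length is the same for every region, it lay at 13.9% and 25.0% of these regions. The 2 groups of middle length gave 11.1% and 16.1% for the flanks, so the shares did not rise at every step.

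Other marks followed the H3K4me1 pattern. H3K27ac lay inside 64.3% ± 1.25 (SD, n = 2) of the 396 regions with H3K4me1 in both flanks and inside, and inside 14.6% ± 1.53 (SD, n = 2) of the 12282 regions without H3K4me1. The share was 26.0% ± 1.47 (SD, n = 2) for both flanks without the inside, and 42.4% ± 0.651 (SD, n = 2) for 1 flank with the inside. H3K27me3 ran the other way for the pattern with both flanks and inside marked. It lay inside 2.15% ± 0.179 (SD, n = 2) of the regions with both flanks and inside marked and inside 11.4% ± 1.09 (SD, n = 2) of those without H3K4me1. The 2 classes also differed in region length, with medians of 967 and 2171 bp, and in position, since 229 of the 396 regions lay away from gene starts. At protein-coding starts the H3K27ac shares were 52.8% in both libraries for both flanks and inside (125 regions) and 15.2% ± 1.61 (SD, n = 2) without H3K4me1. Away from starts they were 70.7% ± 2.47 and 13.6% ± 1.13 (SD, n = 2). For H3K27me3 the same 2 patterns gave 3.60% ± 0.566 and 10.7% ± 0.825 (SD, n = 2) at protein-coding starts. Both flanks without the inside gave 10.0% ± 2.02 (SD, n = 2) of 35 regions there, near the share without H3K4me1. The part of region length was not tested.

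Peaks of HOXD13, a homeobox transcription factor profiled in 1 A673 library that lacks the shNS label, lay inside 10.4% of the 396 regions with both flanks and inside marked. They lay inside 2.90% of the regions without H3K4me1 and inside 12.5% of the 48 regions with both flanks alone, which is 6 regions. Over all 16000 regions the share was 3.55%. With 1 library there is no replicate check. In the CHLA10 HOXD13 list the corresponding shares of the first 2 classes were 1.77% and 0.342%.

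The 2600 regions with H3K4me1 in 1 flank allow a comparison of the 2 sides of the same region. H3K27ac lay in the flank with H3K4me1 at 34.3% and 30.0% of them (replicates 1 and 2) and in the opposite flank at 10.7% and 9.31%. H3K27me3 did not favour the H3K4me1 side, at 5.96% and 6.81% against 6.46% and 8.04% on the opposite side. HOXD13 peaks of the 1 A673 library lay in the H3K4me1 flank at 96 regions (3.69%) and in the opposite flank at 29 (1.12%). Over all 16000 regions, 1.99% had a HOXD13 peak in either flank. CHLA10 H3K4me1 also lay on the A673 side, at 12.2% and 13.3% of regions against 2.27% and 1.88% on the opposite side.

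**Figure D4:**
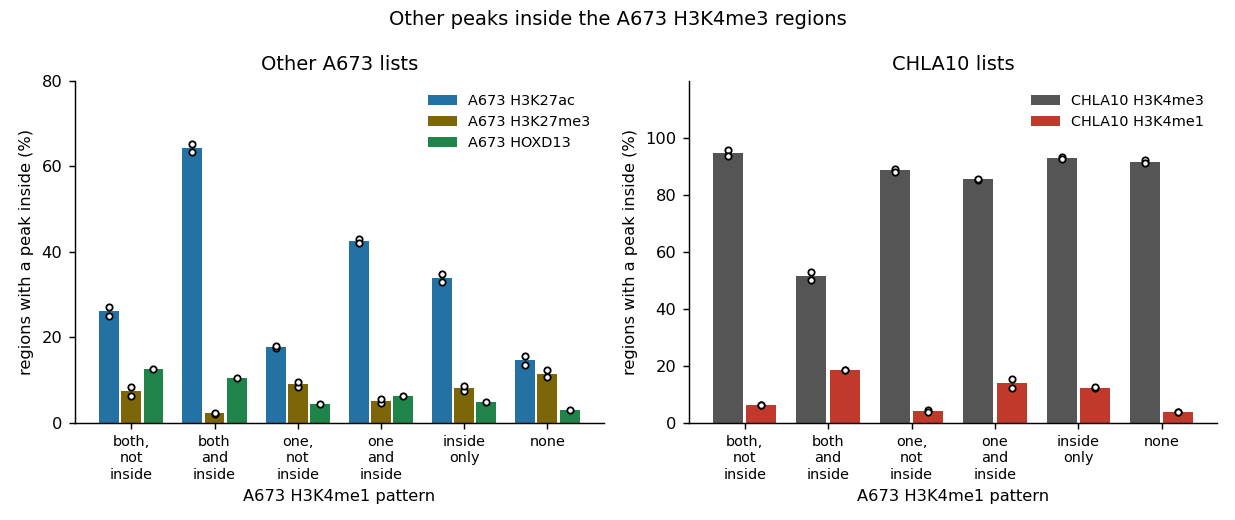
Percentage of A673 H3K4me3 regions of each H3K4me1 pattern with a peak inside (vertical axis) for other A673 lists at left and CHLA10 lists at right; bars are means and points single libraries. H3K27ac reaches 64.3% where H3K4me1 lies in both flanks and inside, and CHLA10 H3K4me3 is lowest there, at 51.5%.

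CHLA10 H3K4me3 lay inside most A673 H3K4me3 regions, and least often inside those with both flanks and inside marked. CHLA10 H3K4me3 lay inside 91.6% ± 0.628 (SD, n = 2) of the regions without H3K4me1 and inside 94.8% ± 1.47 (SD, n = 2) of those with both flanks alone. It lay inside 51.5% ± 2.14 (SD, n = 2) of the regions with both flanks and inside marked, at 53.0% and 50.0% in its 2 libraries. Away from starts CHLA10 H3K4me3 was less frequent over every pattern together, at 67.4% ± 1.65 (SD, n = 2), and there it lay inside 38.0% ± 2.47 (SD, n = 2) of the 229 regions with both flanks and inside marked and inside 72.6% ± 1.83 (SD, n = 2) of those without H3K4me1. At protein-coding starts the same 2 patterns gave 76.8% in both libraries and 95.8% ± 0.342 (SD, n = 2). The 2 patterns also differed in A673 H3K4me3 strength, with median −log10 q of 10.8 and 10.3 against 94.6 and 81.5 over all regions. Away from starts the medians were 7.58 and 7.65 against 24.0 and 19.1, and at protein-coding starts 123 and 107 against 115 and 99.1. The part of H3K4me3 strength was not tested. In CHLA10's own 17559 H3K4me3 regions, H3K4me1 lay inside 8.27% and 8.11% and in exactly 1 flank at 8.17% and 7.97%. Both A673 libraries lay above both CHLA10 libraries in each of these, which with 2 against 2 no exact permutation test can take under p = 0.33. The CHLA10 H3K4me1 lists were shorter, with 23432 and 20956 peaks. They covered 9.63 and 11.3 Mb, against 74.5 and 51.6 Mb for the A673 H3K4me1 lists. The part of list length and covered Mb in this difference was not tested.

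For genes, 13103 of 19974 protein-coding genes had a region within 1 kb of a start, which is 65.6%. Of these, 2778 genes (21.2%) had H3K4me1 of both libraries inside or in a flank, 2148 (16.4%) in at least 1 flank, 1513 (11.5%) inside and 144 (1.1%) in both flanks. The EWS-FLI1 activated list, which holds genes that mark Ewing sarcoma, had a region at 33 of 36 genes. Markers of other cell types had a region at 9 of 24 epithelial, 9 of 19 endothelial, 3 of 20 haematopoietic and 1 of 16 myogenic genes. The neural and neural crest list had one at 23 of 35 genes, or 65.7%, near the share of all genes. The EWS-FLI1 repressed list had one at 28 of 32 genes, and genes silent in most tissues at 0 of 39. Members without a region included CDH1 and EPCAM, which define epithelia, PTPRC of blood cells, and PECAM1 and CDH5 of endothelium. These were picked from the lists, in which 9 epithelial and 9 endothelial genes did have a region. Among defining Ewing sarcoma genes, STEAP1 had H3K4me1 in both flanks and inside, NKX2-2 in the downstream flank, and CCND1, PRKCB and NR0B1 had no zone marked by both libraries. At NR0B1 replicate 1 marked 957 bp upstream and replicate 2 marked 672 bp downstream.

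Promoters of the patterns were compared by sequence for 10766 genes matched to a promoter. The median number of CG dinucleotides in 300 bases was 28 for genes without H3K4me1 and 31 for genes with a single flank and nothing inside. It was 24.5 for the 92 promoters with both flanks and inside marked, whose lower quartile was 12. Protein-coding promoters of genes with no H3K4me3 region had a median of 5. The sequence TATAAA, searched on both strands, was found in 9.78% of those 92 promoters, which is 9 promoters, in 4.58% of the promoters without H3K4me1 and in 9.46% of all 22132 protein-coding promoters. GGAAGGAA, a core of the repeats that EWS-FLI1 binds, was found on either strand in 4.14% of promoters with H3K4me1 in any zone, 3.07% of those without and 3.68% of all. These matches describe letters in a window and not bound sites.

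The genes with the strongest H3K4me3 of each pattern show the arrangement in single loci, given as the bp covered by H3K4me1 replicates 1 and 2. At PHF12 (region chr17:28947471-28953035) 357 and 276 bp of the upstream flank and 1556 and 1784 bp of the downstream flank were covered, and inside 0 and 34 bp. CARHSP1, an RNA-binding phosphoprotein, had 514 and 781 bp upstream and 642 and 1856 bp downstream with none inside. JARID2, a cofactor of the Polycomb complex that writes H3K27me3, had 1077 and 565 bp upstream and 1246 and 854 bp downstream. Its inside carried 828 bp in replicate 1 and none in replicate 2. All 3 thus had H3K4me1 on either side in both libraries. CCDC127 shares its region with SDHA, a subunit of succinate dehydrogenase, and ARF1, a small GTPase of the Golgi, had only 76 and 71 bp upstream. Inside ARF1's region replicate 1 covered 0 bp and replicate 2 covered 1293 bp. PTP4A2, a protein tyrosine phosphatase, had 1285 and 920 bp upstream and 1973 and 1811 bp downstream.

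Both flanks and the inside were marked at FJX1, with 1427 and 1761 bp upstream, 1881 bp inside in replicate 2 and less in replicate 1, and the whole downstream flank of 2000 bp in both libraries. MAP2K3, a kinase that activates p38, had 882 and 747 bp upstream, 737 and 734 bp inside and 480 and 608 bp downstream. CFAP58, a protein of cilia and flagella, shares its region with ITPRIP. KIRREL1 (a cell adhesion protein), SIRPA (the receptor of the CD47 signal) and ALX4 (a homeobox factor of craniofacial development) completed this group. At SIRPA the flank of lower coordinate had 4 and 338 bp, which makes it the thinnest call of the 6. At ALX4 the inside was the most covered, by 3329 and 2549 bp of a region of 6132 bp.

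Among genes with 1 marked flank, GATAD2A had the whole downstream flank of 2000 bp in both libraries, 1899 and 2527 bp inside and 0 bp upstream. LIN28B, an inhibitor of let-7 microRNA processing, was marked upstream by 1024 and 625 bp and downstream by 0 bp in both. PRR5L, a partner of the mTORC2 complex, was marked upstream by 782 and 780 bp and had 301 and 0 bp downstream, so its second flank was missed through replicate 2. The other three were CD59, a membrane inhibitor of complement, CAPRIN1, an RNA-binding protein of stress granules, and RFXAP, a regulator of MHC class II genes. CD59 and RFXAP were marked downstream and CAPRIN1 upstream. At CAPRIN1 the downstream flank had 1177 bp in replicate 1 and 0 bp in replicate 2.

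In the group with H3K4me1 inside only, the 2 libraries coincided least. Its genes of highest H3K4me3 rank were NBPF1, GATA2 (a haematopoietic and vascular transcription factor), SLC35C1 (the Golgi transporter of GDP-fucose), MIER2, SAMM50 (of the mitochondrial outer membrane) and INTS5 (of the Integrator complex). Peaks of the 2 libraries shared a base in some zone at 458 of all 630 such genes (72.7%). Genes with 1 flank marked and not the inside, which likewise have a single marked zone, shared a base at 1054 of 1228 (85.8%). The count was 107 of 107 for genes with both flanks and inside marked. There any of several marked zones could supply the shared base, so that count is not a like comparison. The single zones also differ in length. A flank is 2 kb long, and inside-only regions at protein-coding starts had a median of 3207 bp. The part of zone length was not tested. At NBPF1 667 and 708 bp were covered at different places, in replicate 1 upstream of the start and at the downstream edge and in replicate 2 between them. At INTS5 198 and 238 bp were covered. Without H3K4me1 in both libraries, LIN7C and ARID3A had 0 bp in every zone and library. ACP2 (a lysosomal phosphatase, in a region shared with the nuclear receptor NR1H3) also had 0 bp throughout. KIF18A, a mitotic kinesin whose region also holds a start of METTL15, had 1483 bp inside in replicate 1 alone, NOL12 had 294 bp and TIMM29 had 230 bp in that replicate alone.

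Gene groups differed in how often a flank was marked. The lists below were drawn up with earlier results of these data known, so the counts are descriptions, to be read against the 16.4% of all genes with a region. H3K4me1 lay in at least 1 flank at 12 of 28 EWS-FLI1 repressed genes, 14 of 28 HOX genes, 14 of 35 immediate early genes and 15 of 41 mesenchymal and matrix genes. It lay there at 9 of 33 EWS-FLI1 activated genes, 6 of 23 neural and neural crest genes and 13 of 63 developmental transcription factors. Close to the background were 5 of 27 writers, erasers and complex subunits of H3K4 methylation and 5 of 30 housekeeping genes, and below it 3 of 34 cell cycle genes and 1 of 30 cytosolic ribosomal protein genes. These counts depend on the demand for both libraries. With H3K4me1 in any zone, all genes with a region went from 21.2% for both libraries to 55.1% in replicate 1 and 28.8% in replicate 2. Ribosomal protein genes went from 3.33% to 40% and 13.3%, and cell cycle genes from 17.6% to 47.1% and 23.5%, below all genes in each case. Housekeeping genes went from 23.3% to 73.3% and 33.3%, above all genes in each case. HOX genes went from 57.1% to 85.7% and 60.7%, and EWS-FLI1 repressed genes from 57.1% to 85.7% and 64.3%. Cell type markers gave 3 of 9 epithelial genes, 1 of 9 endothelial genes, 0 of 3 haematopoietic genes and 0 of 1 myogenic gene.

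**Figure D5:**
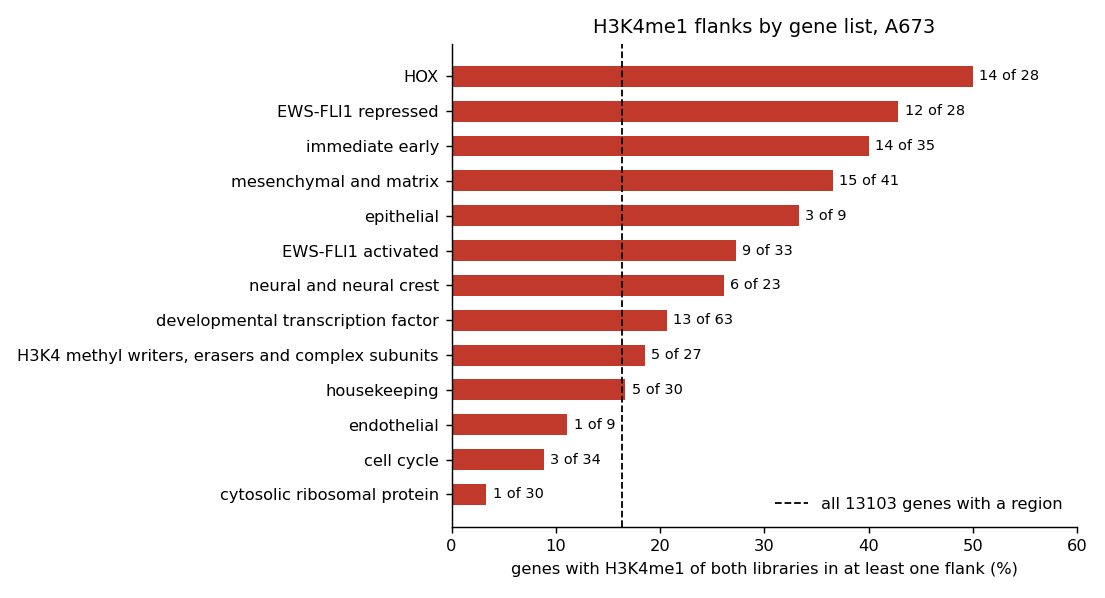
Percentage of genes with an H3K4me3 region that have H3K4me1 of both libraries in at least 1 flank (horizontal axis) for each list with at least 9 such genes; the dashed line is all 13103 genes. HOX, EWS-FLI1 repressed and immediate early genes reach 40% or more, and ribosomal protein genes 3.33%; single libraries give higher shares of genes with H3K4me1 in any zone.

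Region length differed between lists as well. The median region of the EWS-FLI1 repressed list was 3312 bp long, that of the immediate early list 4772 bp and that of all genes with a region 2547 bp. The medians of the ribosomal protein and housekeeping lists were 3982 and 3993 bp. The part of length in these counts was not tested.

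The EWS-FLI1 repressed genes include the mesenchymal programme that rises when the fusion is lowered, and 17 of the 28 also stand in the mesenchymal list. SPARC, a matrix glycoprotein, had the whole downstream flank of 2000 bp marked in both libraries, 316 and 549 bp inside and 0 bp upstream. TNC (tenascin C) had 1748 and 141 bp downstream. CDKN1A, the cell cycle inhibitor p21, had the whole upstream flank of 2000 bp in both. FN1 (fibronectin) was marked inside by 1449 and 1146 bp, with 1420 bp upstream in replicate 1 alone. The transcription factor TWIST1 had 0 bp in every zone, and SNAI2, CALD1 and DKK1 had H3K4me1 in replicate 1 only. The other mesenchymal genes of highest rank were ITGA5, the fibronectin receptor chain, with 1758 and 2000 bp upstream, and ACTA2, smooth muscle actin, with 244 and 1102 bp inside. FBN1 had 574 bp inside and CDH2 35 bp downstream, both in replicate 1 alone.

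Of the genes that EWS-FLI1 activates, JAK1, a cytokine receptor kinase, was marked downstream by 1773 and 1557 bp. PAPPA, a protease that frees IGF from its binding protein, was marked upstream by 2000 and 1880 bp and inside by 1346 and 1009 bp. KCNAB3 was marked inside only. IL1RAP, FCGRT and GLI1 had 0 bp in every zone, and PRKCB had 347 and 453 bp in its flanks in replicate 2 alone. STEAP1, named as a Ewing sarcoma marker, had 600 and 562 bp upstream, 620 and 682 bp inside and 388 and 202 bp downstream. NKX2-2 had 1345 and 593 bp downstream.

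Among HOX genes, which pattern the body axis, neighbours share regions, and the 28 genes lie in 23 regions, of which 10 had a marked flank. HOXD9, HOXD10 and HOXD11 lie in 1 region of 23330 bp, the longest of all 16000, which carried 5045 and 2268 bp of H3K4me1 inside, 231 and 237 bp in the upstream flank and 311 and 335 bp in the downstream flank. By cluster, a flank was marked at 7 of 8 HOXC genes, 4 of 6 HOXD, 2 of 7 HOXB and 1 of 7 HOXA genes with a region. HOXB7 and HOXB8 share a region marked inside by 956 and 1167 bp. HOXB6 had 2000 bp of a flank in both libraries and HOXC13 had 43 and 6 bp. HOXD13 itself, at 5928 bp of H3K4me3, had 295 bp inside and 75 bp downstream in replicate 1 and 0 bp in replicate 2. HOXB4, HOXB13 and HOXB9 had H3K4me1 in replicate 1 only.

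Immediate early genes are induced within minutes of a signal. DUSP5, a phosphatase of ERK, had 2213 and 2802 bp inside and a whole flank of 2000 bp in both libraries. IER5 had 2000 and 1238 bp downstream, and JUNB, an AP-1 subunit, had 623 and 1447 bp upstream. ZFP36L1, an RNA-binding protein of mRNA decay, was marked in both flanks and inside. NR4A2 and EGR3 had 0 bp in every zone, and GADD45B and MCL1 had H3K4me1 in replicate 1 alone. H3K27ac of both libraries lay inside or in a flank at 13 of the 35 genes (37.1%, against 14.2% of all genes with a region), and H3K27me3 at 0 of 35.

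Developmental transcription factors differed from these in H3K27me3, which both libraries placed at 32 of 63 genes (50.8%, against 9.2% of all genes with a region). GATA2 was marked inside by 1172 and 1050 bp and DLX2, a factor of forebrain and jaw, by 3380 and 2024 bp. TBX3, FOXD3, MEIS2 and GATA3 had no zone marked by both libraries. Of the neural list, NGFR had 1629 and 2000 bp in a flank, SOX2 had both flanks and inside marked, TUBB3 had 217 and 1162 bp upstream and RET 834 and 210 bp inside. TFAP2A, SOX9, SOX11 and KIT had no zone marked by both.

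Among the genes of the H3K4 methylation machinery, KMT2D, which encodes MLL4, was marked inside by 405 and 1241 bp, and KDM2B, a CpG-binding demethylase, had both flanks and inside marked. HCFC1 and SMYD2 had 1 flank and inside, while DPY30, MEN1, ASH2L and KMT2C (MLL3) had no zone marked by both libraries. Housekeeping examples were SDHA (426 and 591 bp upstream, 304 and 475 bp downstream), RAB7A, ENO1 and C1orf43 among the marked and VPS29, PSMB2, REEP5 and LDHA among the rest. In the cell cycle list CDK4 had 1086 and 1358 bp upstream, MCM2, CCNB1 and PLK1 were marked inside only, and CDK2, TYMS, BUB1 and CDK6 had no zone marked by both. The single marked ribosomal protein gene was RPL13, with 58 and 493 bp upstream and 426 and 548 bp inside. RPLP2 and RPS27A had 0 bp throughout.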

How the data were processed

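Of 22 libraries, 18 had peak lists, and the 4 H3K4 lists of A673 were used, with the other A673 and CHLA10 lists set beside them. The submitters' processing notes give hg38 as the build and list bedtools, Bowtie2, SEACR 1.2 and MACS2, but not which step each served. Peak names in the deposited lists place narrow peaks against IgG, called per library. For each peak the authors deposited a fold enrichment (a ratio over the caller's background) and −log10 p and q values. The numbering of deposited peaks is not continuous, and the criterion that removed the others is not given in the sources used here. The lists hold no counts.

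Peaks and RefSeq GRCh38.p14 genes of the autosomes and chromosome X were kept. Starts and strands came from its promoter table for 15813 of 19974 protein-coding genes; other genes were placed by both of their boundaries, without strand, for which flanks are named by coordinate. A gene took the region with the highest lower −log10 q. Named genes are the 6 highest by that rank in each pattern and up to 4 of the commonest and 4 of the other patterns per list; some are not reported here. The genes, lists and regions were chosen with earlier results of these data known. The shares were recomputed under alternatives given in the closing section. Scripts (Python 3.11.15, pandas 2.3.3) were tested on simulated data.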

Additional observations from a re-analysis of the deposited data

How the results depend on the processing

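No paired analysis was possible because the results are shares that come from no test, and the labels do not say that a replicate number marks the same culture in both marks. The shares moved by more than 1 SD of the libraries when a peak of either H3K4me1 library sufficed, to 39.6% inside, 10.2% both flanks, 39.8% exactly 1 flank and 39.5% no H3K4me1. The number of genes then became 960 with both flanks, 5374 with 1 flank, 1591 with the inside only and 5178 with none. Leaving out single libraries gave 13.7% to 34.2% inside, 3.95% to 7.83% both flanks, 16.4% to 36.6% exactly 1 flank and 44.7% to 75.6% none; each of the extremes 34.2%, 7.83%, 36.6% and 44.7% came without H3K4me1 replicate 2. Genes with both flanks numbered 80 with flanks of 1 kb and 393 with flanks of 5 kb. Keeping from every list the 50% of peaks with the highest −log10 q left both flanks marked at 0.802% of regions. The ratio of downstream to upstream flanks was 1.55 to 1.57 without either H3K4me1 replicate and 1.68 over regions with starts on 1 strand, settings chosen after seeing the data. The other 54 values stayed within 1 SD of the libraries or, for gene counts, within 1.5 times. Depth is unknown, and a missing peak does not show that the mark is absent.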

Other observations

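The ranking by H3K4me3 strength led often to chromosome 11. It held 10 of the 30 genes named by pattern and 17 of the 100 regions with the highest lower −log10 q, more than any other chromosome, but 5.01% of all regions. The median lower −log10 q was 80.5 on chromosome 11 and 76.8 elsewhere. H3K4me1 lay inside or in a flank of 25.1% of its regions and of 23.1% of those elsewhere. Copy number was not analysed here.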
